A study of Drosophila melanogaster with 6 samples.

Results

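The sugar transporters followed here are *Tret1-1*, *Tret1-2*, *Glut1*, *sut1*, *sut2*, *sut3* and *sut4*, taken by their symbols from a table of read counts of 17558 *Drosophila melanogaster* genes. All 7 symbols were found in the table, and each gene was followed in all 6 RNA-seq samples. The samples were EEs (enteroendocrine cells, the hormone-secreting cells of the gut epithelium), sorted from the intestines of adult females. In 3 *pros*-depleted samples the flies carried prosV1-Gal4ts, UAS-GFP and *pros-RNAi*, and in 3 control samples they carried prosV1-Gal4ts and UAS-GFP alone. The comparison asks which genes depend on Prospero, the homeodomain transcription factor that marks EEs.

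Both groups therefore shared the driver, the GFP and the temperature shift, and differed in the hairpin RNA against *pros*. Flies of both groups were 5 to 7 days old and were kept at 29 °C for 7 days, at which temperature the repressor of Gal4 is inactive. The driver is active in *pros*-expressing cells, so the hairpin RNA and the GFP used for sorting were made in the same cells. Each sample held 20000 GFP-positive cells that excluded propidium iodide, pooled from several guts, and its RNA was amplified before library preparation. Which *pros-RNAi* line was used for these samples is not given in the sources used here.

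Members of the SLC2 family are carriers with several membrane-spanning segments that let hexoses or disaccharides pass down their concentration gradient. In insects the main circulating sugar is trehalose, a disaccharide of glucose that is made largely in the fat body and cleaved to glucose by trehalase in the cells that take it up. *Tret1-1* encodes a carrier of trehalose and *Tret1-2* its neighbouring paralogue. *Glut1* encodes the fly relative of the mammalian glucose carrier GLUT1, and *sut1*, *sut2*, *sut3* and *sut4* were named as sugar transporters by their likeness to the same family. In the fly midgut, *sut1* is known for carrying glucose into EEs that make the hormone NPF.

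The libraries held 27183747 to 30148395 counts in *pros*-depleted samples and 29602875 to 40766059 counts in control samples. The depleted gene itself was low where the labels say it should be, with 5183, 3756 and 4945 *pros* counts in *pros*-depleted samples, against 19861, 15349 and 29060 counts in control samples (3R, 11328480 to 11407627; log2 fold change -2.03, SE 0.237, adjusted p = 0.000763, edgeR's quasi-likelihood test, adjusted by Benjamini-Hochberg). EE marker genes were expressed in both groups and 11 of 12 fell, to a summed 7231 to 11760 CPM (counts brought to a common library size after TMM scaling) in *pros*-depleted samples, against 107417 to 122927 CPM in control samples. Of 12 enterocyte markers 6 rose, with a summed level of 10855, 5638 and 4818 CPM in *pros*-depleted samples and of 1190, 776 and 2209 CPM in control samples. Of 9 progenitor markers 6 rose, to a sum of 1007 to 1146 CPM in *pros*-depleted samples, against 372 to 446 CPM in control samples. The summed markers of other cell types were low or moderate, at 21.2 to 39.5 CPM against 32.0 to 39.7 CPM for visceral muscle, 12.2 to 35.2 CPM against 48.0 to 76.9 CPM for hemocytes and fat body, 311 to 332 CPM against 524 to 556 CPM for neurons and glia, and 4.60 to 5.35 CPM against 6.68 to 9.46 CPM for trachea (*pros*-depleted against control samples). Among these 4 lists visceral muscle had 1 gene called higher, and visceral muscle, hemocytes and fat body, and neurons and glia had 1 called lower each. No listed marker of any cell type was at 0 in all samples. The part of these markers in the results on sugar carriers was not tested, and in bulk samples fewer cells of a type and less RNA per cell cannot be told apart.

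In outline, *sut2* fell after *pros* depletion, *sut3* was nearly absent from *pros*-depleted samples, and no sugar transporter of the 7 rose by the test used. To be called, a gene needed an adjusted p below 0.01 and a log2 fold change beyond 0.5 in either direction in edgeR's quasi-likelihood test across the 10374 genes that reached 10 counts in 3 or more samples. Of the 7 transporters 6 passed this filter, of which 2 were called lower, 0 higher and 4 neither, and *sut4* was too rare to be tested. Across all genes tested 12.7% were called, 7.96% lower and 4.73% higher, so that 2 calls among 6 genes say nothing particular about the family. Besides the calls, 2 of the 6 had a positive log2 fold change at an unadjusted p under 0.05, and DESeq2 called 1 of them, *Tret1-1*, higher. The median log2 fold change was -0.20 over the 6 and 0.02 over all genes tested. The 2 groups of samples did not overlap for 5 of the 6, with the *pros*-depleted samples below in 3 and above in 2. Such separation was found for 43.0% of all genes tested, 22.5% below and 20.4% above. *sut3*, one of the 2 called and of the 5 without overlap, passed the filter through its control samples alone and so had to differ, which leaves *sut2* as the 1 call that the filter did not fix.

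**Figure D1:**
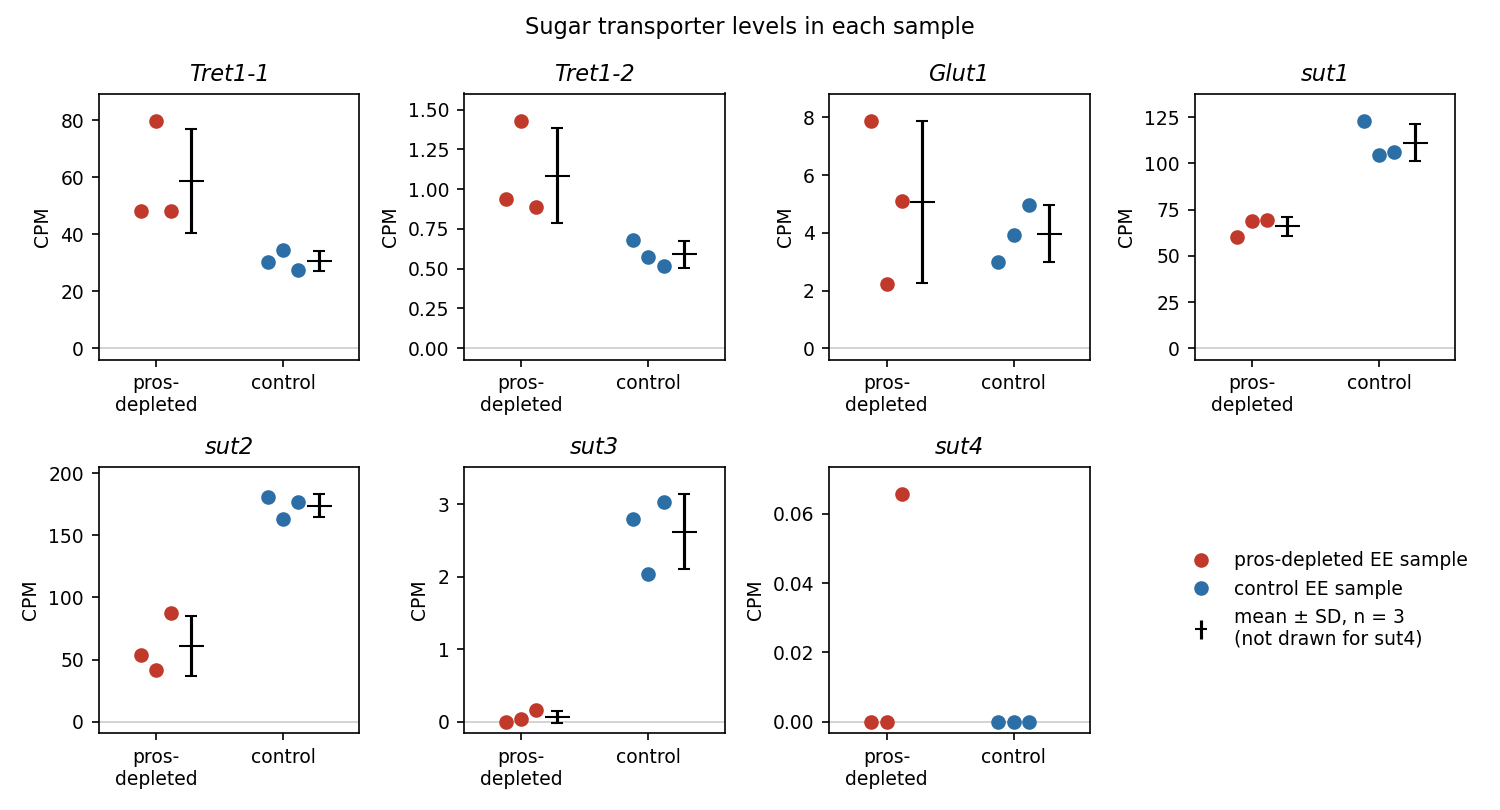
Level of each sugar transporter in CPM (linear axis from 0, one panel per gene) in the 3 *pros*-depleted (red) and 3 control (blue) EE samples, with the mean ± SD beside the points except for *sut4*. The *pros*-depleted samples lie below all control samples for *sut1*, *sut2* and *sut3* and above them for *Tret1-1* and *Tret1-2*, while *Glut1* overlaps and *sut4* is close to 0 throughout.

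The *sut1*, *sut2* and *sut3* genes lie side by side on 2R between 8082976 and 8091297 (BDGP6), a stretch of 8322 bp. The first of them, *sut1* (2R, 8082976 to 8087151, plus strand, 2412 bp of exons), had 1921, 1879 and 2112 counts in *pros*-depleted samples, against 4889, 2936 and 3686 counts in control samples. After scaling for library size this was 60.2, 68.9 and 69.3 CPM in *pros*-depleted samples, against 123, 105 and 106 CPM in control samples. The groups were clear of each other, and each was tight. The means were 66.1 ± 5.14 and 111 ± 10.2 CPM (SD, n = 3 each), with a log2 fold change of -0.75 (SE 0.163) and an adjusted p of 0.0119 in edgeR's quasi-likelihood test, which missed the threshold of 0.01, so the gene was not called. DESeq2 called the gene lower, with an adjusted p of 0.000658, whereas edgeR's adjusted p lay between 0.0249 and 0.0496 when any 1 sample was left out.

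The second gene of the cluster, *sut2* (2R, 8087396 to 8089297, 1608 bp of exons), was the most abundant of the 7 in control EEs. It had 1712, 1137 and 2669 counts in *pros*-depleted samples, against 7183, 4573 and 6149 counts in control samples. In CPM these were 53.6, 41.7 and 87.6 in *pros*-depleted samples, against 181, 163 and 177 in control samples. The control samples were close together and all higher, and the *pros*-depleted samples were more spread, with replicate 3 the highest. *sut2* fell to 61.0 ± 23.8 CPM in *pros*-depleted EEs, against 174 ± 9.23 CPM in control EEs, which is 0.351 times the control level (log2 fold change -1.51, SE 0.275, adjusted p = 0.00574 in edgeR's quasi-likelihood test). The direction held whichever sample was left out, but the call was lost in 5 of these 6 fits, with an adjusted p of 0.0271 and 0.0121 without *pros*-depleted replicate 1 or 2 and of 0.0181, 0.0181 and 0.0164 without control replicate 1, 2 or 3. Without *pros*-depleted replicate 3 the adjusted p was 0.00193, and with scaling by library size alone it was 0.0156.

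The third gene, *sut3* (2R, 8089482 to 8091297, 1592 bp of exons), was far rarer than its neighbours in both groups. It had 0, 1 and 5 counts in *pros*-depleted samples, against 111, 57 and 105 counts in control samples. In *pros*-depleted samples its level was thus 0, 0.0366 and 0.164 CPM, near or under the 0.0755 to 0.110 CPM that 3 counts make in these libraries, and in control samples it was 2.79, 2.04 and 3.02 CPM. The fit across genes gave a log2 fold change of -5.21 (SE 0.741, adjusted p = 0.00191, edgeR's quasi-likelihood test), which is no independent support, since only a gene that differed could pass the filter with these counts in *pros*-depleted samples. Over the 3 samples of each group 6 counts stood against 273, which puts the control level at 39.8 times the *pros*-depleted level (exact 95% interval 18.1 to 109, for counting error alone, amplified reads being no independent molecules). Without any 1 control sample the gene no longer passed the filter and was not tested.

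The genes on both sides of the cluster were looked at after the values of its members were known. On the lower-coordinate side *slv*, which encodes a sugar transporter of the SWEET type, overlaps *sut1* on the opposite strand by 183 bp of exon, or 7.59% of the exonic length of *sut1*. It had 415, 419 and 505 counts in *pros*-depleted samples, against 609, 619 and 693 counts in control samples. Its log2 fold change was -0.35, with an adjusted p of 0.224 in edgeR's quasi-likelihood test. Whether reads were assigned by strand is not given in the sources used here, so a part of the counts of *sut1* and *slv* could belong to the other gene. Farther out *Vps28* and *lig* had log2 fold changes of 0.51 and 0.39, neither of them called. On the higher-coordinate side *CG8713* begins 399 bp beyond *sut3* and fell, to 2.22 CPM in *pros*-depleted EEs, against 53.4 CPM in control EEs (log2 fold change -4.58, adjusted p = 5.00e-05, edgeR's quasi-likelihood test). The next genes, *CG8712* and *CG11210*, had log2 fold changes of -1.24 and -0.02 and were not called. The called genes of this interval were thus *sut2*, *sut3* and *CG8713*, which follow each other on the chromosome. Of these *sut3* had to differ to pass the filter, and 7.96% of all genes tested were called lower. Whether the adjacent genes changed together was not tested.

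The last gene of the name, *sut4*, lies elsewhere on 2R (10085442 to 10087127, minus strand) within the span of *CG2269*. It had 0, 0 and 2 counts in *pros*-depleted samples, against 0, 0 and 0 counts in control samples. Every sample was under 3 counts, so *sut4* was not detected above this floor in either group and no fold change is given.

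*Tret1-1* (2R, 11665768 to 11674782, plus strand, 3375 bp of exons) lay on the other side of its controls. It had 1541, 2180 and 1465 counts in *pros*-depleted samples, against 1205, 967 and 954 counts in control samples, and 48.3, 79.9 and 48.1 CPM against 30.3, 34.5 and 27.5 CPM. All 3 *pros*-depleted samples were above the highest control, and replicate 2 stood above the other two. The means were 58.8 ± 18.3 CPM in *pros*-depleted EEs and 30.8 ± 3.56 CPM in control EEs (SD, n = 3 each), a ratio of 1.91. The log2 fold change was 0.93 (SE 0.238) with an adjusted p of 0.0234 in edgeR's quasi-likelihood test, so the gene was not called, and 86.5% of all genes tested had a lower log2 fold change. DESeq2 called it higher (adjusted p = 0.00262), as did edgeR's quasi-likelihood test with scaling by library size alone (adjusted p = 0.00813).

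*Tret1-2* (2R, 11675935 to 11678014, 1695 bp of exons), the paralogue that follows *Tret1-1* on the chromosome, was much rarer. It had 30, 39 and 27 counts in *pros*-depleted samples, against 27, 16 and 18 counts in control samples. In CPM these were 0.940, 1.43 and 0.886, against 0.680, 0.571 and 0.518, again without overlap. The log2 fold change of 0.87 (SE 0.376) was close to that of *Tret1-1* and did not pass the threshold (adjusted p = 0.127, edgeR's quasi-likelihood test). The counts of *Tret1-2* came to 1.95%, 1.79% and 1.84% of those of *Tret1-1* in *pros*-depleted samples, against 2.24%, 1.65% and 1.89% in control samples. These shares overlapped, and a two-sided exact permutation test gave p = 0.8. How reads that fit several genes were counted is not given in the sources used here, so a split of reads between the pair was not tested.

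The *Tret1* pair lies within the span of *Roc2*, which encodes a RING finger protein of ubiquitin ligases and had a log2 fold change of -0.10. None of the genes around the pair, also looked at afterwards, was called higher. *Buffy*, which encodes a fly protein of the Bcl-2 family, begins 1478 bp beyond the pair and fell, to 14.6 CPM in *pros*-depleted EEs, against 91.1 CPM in control EEs (log2 fold change -2.64, adjusted p = 0.000402, edgeR's quasi-likelihood test). *CG13196* and *wal* had log2 fold changes of 0.22 and 0.38 and were not called.

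*Glut1* (3L, 914074 to 993788, 10928 bp of exons), the fly relative of GLUT1, did not separate the groups. It had 251, 61 and 155 counts in *pros*-depleted samples, against 119, 110 and 173 counts in control samples. In CPM these were 7.86, 2.24 and 5.09, against 3.00, 3.93 and 4.98. The highest and the lowest of the 6 values were both *pros*-depleted samples, so the groups overlapped. The means were 5.06 ± 2.81 and 3.97 ± 0.992 CPM (SD, n = 3 each; two-sided exact permutation p = 0.6), and edgeR's quasi-likelihood test gave a log2 fold change of 0.35 (SE 0.434) with an adjusted p of 0.585. Without *pros*-depleted replicate 1 the log2 fold change turned to -0.10 (adjusted p = 0.895). The nearest gene, *CG12038*, 195 bp away, had a log2 fold change of -0.08, and *nerfin-1* and *trio*, 1755 and 2194 bp away, had log2 fold changes of 1.24 and 1.05. None of these was called.

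**Figure D2:**
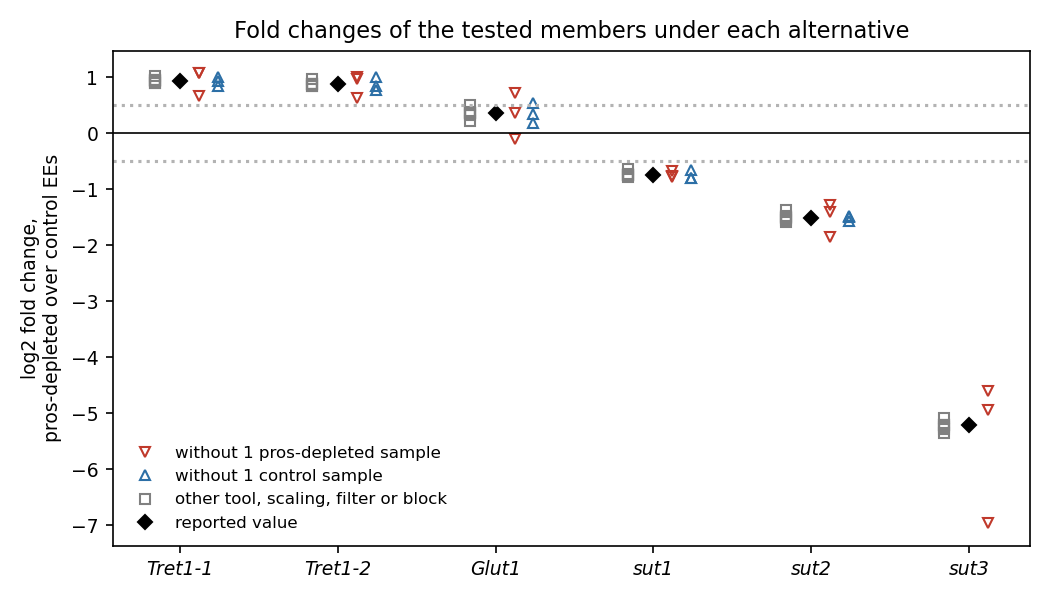
Log2 fold changes (*pros*-depleted over control EEs, vertical axis) of the 6 tested sugar transporters as reported (diamonds), with 1 sample left out (triangles) and with another tool, scaling, filter or block (squares), and dotted lines at 0.5 and -0.5. *Glut1* alone crosses 0, at -0.10 without *pros*-depleted replicate 1, while *sut2* stays between -1.85 and -1.29.

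**Figure D3:**
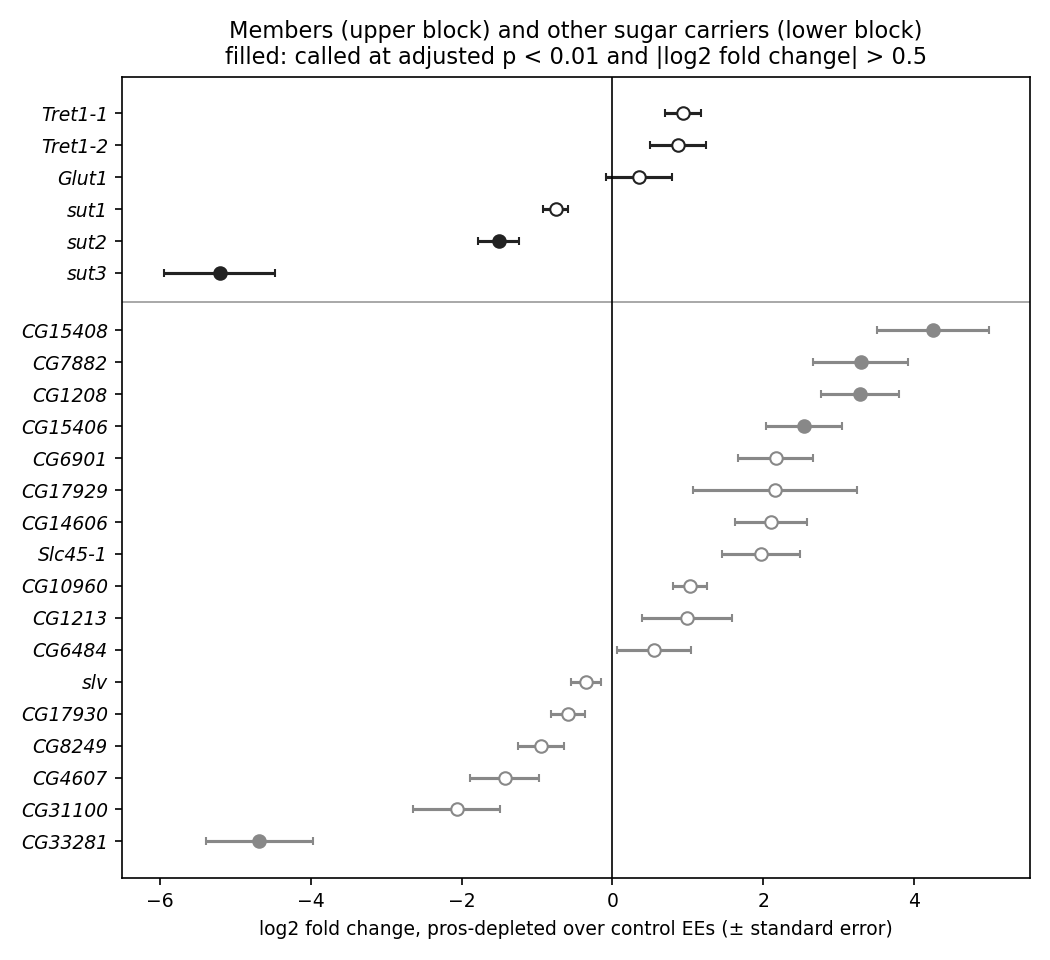
Log2 fold change (*pros*-depleted over control EEs, horizontal axis, bars of ± 1 standard error) of the 6 tested sugar transporters in the upper block and of 17 other tested carriers in the lower block. Filled points passed the test: *sut2* and *sut3* on the lower side above, and below 4 genes on the higher side and *CG33281* at -4.68 on the lower side.

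To set the genes beside each other, CPM was divided by the exonic length of each gene in kilobases. In control EEs *sut2* was first with 108 ± 5.74 CPM per kb, then *sut1* with 46.2 ± 4.23, *Tret1-1* with 9.12 ± 1.05 and *sut3* with 1.64 ± 0.325 CPM per kb, each clear of the next (SD, n = 3 each). *Glut1* and *Tret1-2* followed with 0.363 ± 0.0908 and 0.348 ± 0.0486 CPM per kb, which overlapped. In *pros*-depleted EEs *sut2* and *sut1* overlapped, at 37.9 ± 14.8 and 27.4 ± 2.13 CPM per kb, and *Tret1-1* came after them at 17.4 ± 5.42 CPM per kb. *Tret1-2* and *Glut1* also overlapped, at 0.640 ± 0.176 and 0.463 ± 0.258 CPM per kb, and *sut3* was last of the tested genes, at 0.0420 ± 0.0541 CPM per kb. This order depends on the division by length. In CPM the control means were 3.97 for *Glut1*, 2.62 for *sut3* and 0.590 for *Tret1-2*, and the *pros*-depleted means were 66.1 for *sut1* and 61.0 for *sut2*. Whether reads scaled with exonic length in this amplified RNA was not tested.

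The ratio of *sut2* to *sut1* did not overlap between the groups. The per-kb level of *sut2* over that of *sut1* was 1.34, 0.908 and 1.90 in *pros*-depleted samples, against 2.20, 2.34 and 2.50 in control samples. All controls were above all *pros*-depleted samples, and in 1 *pros*-depleted sample *sut1* exceeded *sut2* per kb. The two-sided exact permutation p was 0.1, the smallest that 3 samples against 3 allow. Without division by length the ratio was 0.891, 0.605 and 1.26 in *pros*-depleted samples, against 1.47, 1.56 and 1.67 in control samples. The ratio of *Tret1-1* to *sut1* per kb was 0.573, 0.829 and 0.496 in *pros*-depleted samples, against 0.176, 0.235 and 0.185 in control samples. All *pros*-depleted samples were above the controls for *Tret1-1* and below them for *sut1*. This ratio therefore could not overlap, and it adds nothing to the results of the single genes.

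Summed over the 7 genes, the level was 171, 194 and 211 CPM in *pros*-depleted samples, against 341, 309 and 319 CPM in control samples. Per kb the sums were 83.9 ± 13.0 in *pros*-depleted EEs and 166 ± 8.89 in control EEs. The groups were apart in both, and the *sut1*, *sut2* and *sut3* cluster made up most of the sum, with 114, 111 and 157 CPM in *pros*-depleted samples, against 307, 270 and 286 CPM in control samples. As a share of the per-kb sum, *sut2* held 45.1%, 32.7% and 55.3% in *pros*-depleted samples, against 64.3%, 64.6% and 66.8% in control samples. The share of *sut1* was 33.8%, 36.0% and 29.1% in *pros*-depleted samples, against 29.2%, 27.6% and 26.7% in control samples, ranges that overlapped (two-sided exact permutation p = 0.2). The share of *Tret1-1*, the trehalose carrier, was 19.4%, 29.9% and 14.5% in *pros*-depleted samples, against 5.14%, 6.51% and 4.94% in control samples. This share could not overlap, since *Tret1-1* lay above its controls and the sum below its own, and it is no further result. The share of *sut3* was 0%, 0.0291% and 0.105% in *pros*-depleted samples, against 1.00%, 0.813% and 1.15% in control samples. It is no further result either, since *sut3* passed the filter through its control samples alone.

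**Figure D4:**
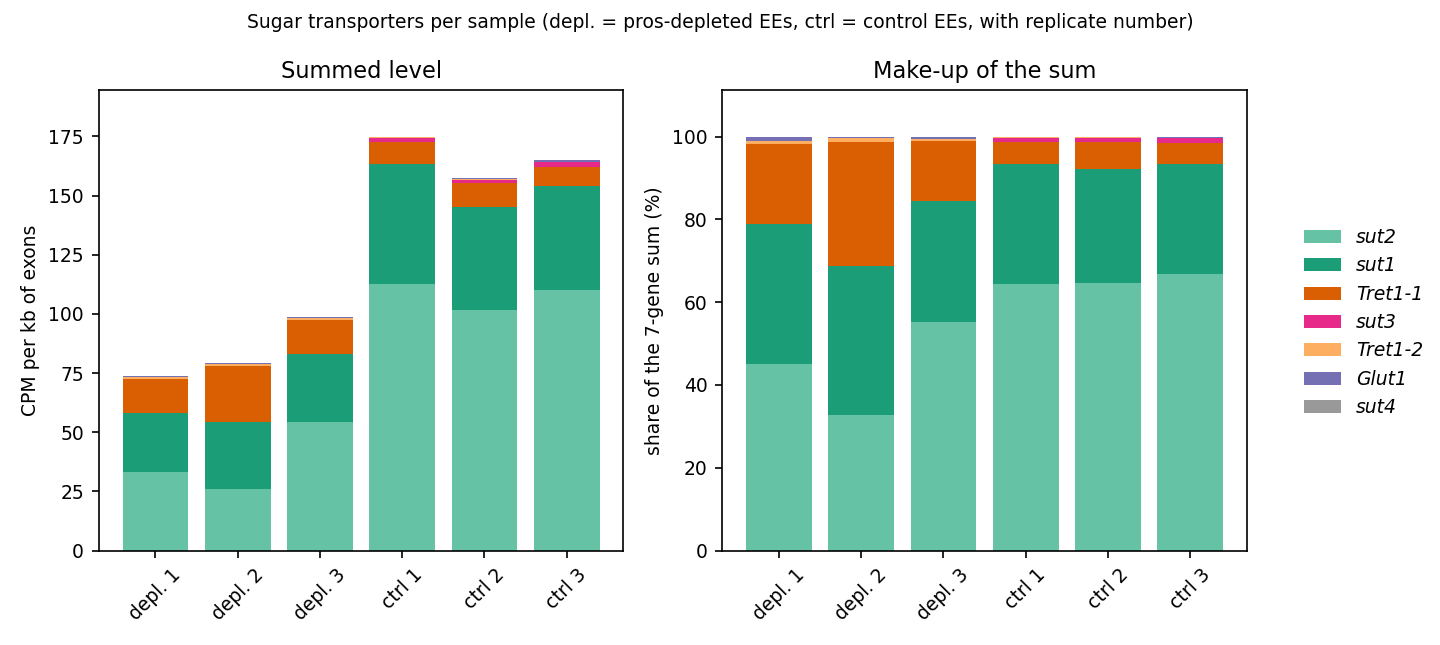
Stacked per-kb levels of the 7 sugar transporters in each sample (left, CPM per kb of exons) and the same as a percentage of their sum (right), with *pros*-depleted samples left of control samples. The sum is 73.9 to 98.6 CPM per kb in *pros*-depleted samples and 157 to 175 in control samples, and *sut2* is the largest block in every sample but *pros*-depleted replicate 2. The *Tret1-1* block takes a larger share in all *pros*-depleted samples, which follows from its higher level and the lower sum.

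For each tested transporter, the genes with the most similar pattern were found by the Euclidean distance between log2 CPM profiles over the 6 samples, each centred on its own mean. Nearest to *Tret1-1* were *scb*, an integrin alpha subunit, at a distance of 0.129, and *Pak*, a kinase bound by Rac and Cdc42, at 0.141. Nearest to *Tret1-2* were *vsg* (0.0881) and *rhea* (0.109), the second of which encodes talin, which links integrins to actin. *Tret1-2* itself was the closest other transporter to *Tret1-1*, at 0.336, and 0.251% of all genes were closer.

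The *sut* genes had other neighbours in pattern. *CG11539* and the autophagy protease gene *Atg4a* were nearest to *sut1*, at 0.154 and 0.161, and the non-coding *CR44779* and *CG17026* were nearest to *sut2*, at 0.324 and 0.374. Nearest to *sut3* were *Apoltp*, which encodes a lipid transfer particle protein, at 0.567, and *CCHa2*, which encodes a peptide hormone, at 0.625. *CCHa2* averaged 613 CPM in *pros*-depleted EEs and 12334 CPM in control EEs, a level far above that of *sut3*. *Glut1* had no close companion among the 7, and its nearest genes were *vas* (0.299) and *CG32532* (0.383).

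Beyond the 7, the table held 23 further genes listed as sugar carriers, of which 17 passed the filter. They are not all of the SLC2 family, since *slv*, of the SWEET type, is among them. Of these 17, 4 rose, 1 fell and 12 did not pass the test, where 4.73% of all genes tested were called higher and 7.96% lower. The median log2 fold change was 1.03, against 0.02 over all genes. The groups did not overlap for 14 of the 17, against 43.0% of all genes tested, with the *pros*-depleted samples above in 9 and below in 5. Among the 4 that rose and the 14 without overlap was *CG15408*, which passed the filter through its *pros*-depleted samples alone and so had to differ. No role is given here for the genes known only by a CG number. Enterocyte markers were higher in *pros*-depleted samples too (above), and their part in these values was not tested.

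The 4 carriers that rose were all rare in control EEs. *CG1208* (3R, 5831639 to 5838782) had 569, 236 and 139 counts in *pros*-depleted samples, against 29, 34 and 43 counts in control samples. It rose to 10.3 ± 6.79 CPM in *pros*-depleted EEs, against 1.06 ± 0.286 CPM in control EEs (log2 fold change 3.29, SE 0.518, adjusted p = 0.00298, edgeR's quasi-likelihood test), with *pros*-depleted replicate 1 the highest. It shares 259 bp of exon with the opposite-strand *CR45192*, whose counts were 1021, 733 and 254 in *pros*-depleted samples and 11, 6 and 20 in control samples, so its own change is uncertain. *CG7882* had 92, 75 and 45 counts in *pros*-depleted samples, against 4, 14 and 5 in control samples (log2 fold change 3.29, SE 0.625, adjusted p = 0.00695, edgeR's quasi-likelihood test). Of its controls only replicate 2 reached 10 counts, so it passed the filter by way of its *pros*-depleted samples.

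*CG15406* had 143, 37 and 112 counts in *pros*-depleted samples, against 29, 11 and 17 in control samples (log2 fold change 2.54, SE 0.507, adjusted p = 0.00846, edgeR's quasi-likelihood test). *CG15408* had 45, 63 and 13 counts in *pros*-depleted samples, against 2, 2 and 3 in control samples (log2 fold change 4.25, SE 0.739, adjusted p = 0.00475, edgeR's quasi-likelihood test). It passed the filter through its *pros*-depleted samples alone, so it had to differ, and it shares 63 bp of exon with *CG3285*. These calls were close to the threshold. When any 1 sample was left out, *CG1208* was called in 3 of 6 fits, *CG7882* and *CG15406* in 1 of 6 each, and *CG15408* in 0 of the 3 fits in which it was tested, with adjusted p values up to 0.0140, 0.0268, 0.0398 and 0.0232 in edgeR's quasi-likelihood test for the 4 genes in this order. Of these fits, the 1 that called *CG7882* left out control replicate 2. There *CG7882* passed the filter through its *pros*-depleted samples alone and so had to differ.

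The carrier that fell was *CG33281*, with 18, 1 and 23 counts in *pros*-depleted samples, against 257, 321 and 617 counts in control samples. The groups were far apart (log2 fold change -4.68, SE 0.704, adjusted p = 0.00241, edgeR's quasi-likelihood test), and the call was lost only without *pros*-depleted replicate 1 (adjusted p = 0.0123). *CG33281* (2L, 3324237 to 3326637) lies between *CG15406* (2L, 3309222 to 3311682) and *CG15408* (2L, 3332814 to 3334790), so within a short stretch of 2L the called carriers moved in both directions.

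The 2 other carriers with the highest levels per kb were *CG1213* and *CG6484*. *CG1213*, close to *CG1208* on 3R, had 327, 136 and 106 CPM in *pros*-depleted samples, against 29.6, 107 and 150 CPM in control samples. These values overlapped (log2 fold change 0.99, adjusted p = 0.264, edgeR's quasi-likelihood test). *CG6484* had 5063, 1236 and 1193 counts in *pros*-depleted samples, against 2244, 1685 and 1706 counts in control samples (log2 fold change 0.55, SE 0.494, adjusted p = 0.445, edgeR's quasi-likelihood test). A single sample, *pros*-depleted replicate 1, was high, and without it the log2 fold change was -0.38.

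Once inside a cell, sugars pass to hexokinase and glycolysis, to the pentose phosphate pathway or to glycogen, and trehalose must first be cleaved. The table held 36 genes of sugar use, and 32 were tested, of which 2 rose, 2 fell and 28 did not pass the test, with a median log2 fold change of -0.15. The 4 calls among 32 genes are near the 12.7% called over all genes tested and say nothing particular about sugar use. The hexokinase gene *Hex-C* had 192, 79 and 93 counts in *pros*-depleted samples, against 16, 9 and 7 counts in control samples. It rose in *pros*-depleted EEs (log2 fold change 3.67, SE 0.454, adjusted p = 0.000996, edgeR's quasi-likelihood test) and was called whichever sample was left out. It was the single called gene of 13 tested in glycolysis, whose median log2 fold change was -0.11.

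*Tps1*, which encodes the enzyme that makes trehalose, had 76, 38 and 48 counts in *pros*-depleted samples, against 13, 13 and 15 counts in control samples. It rose (log2 fold change 2.13, SE 0.391, adjusted p = 0.00596, edgeR's quasi-likelihood test), but was called in 1 of 6 fits with a sample left out, with adjusted p values of 0.00813 to 0.0251. *Treh*, the trehalase gene, was much more abundant and had 418, 315 and 221 CPM in *pros*-depleted samples, against 148, 186 and 109 CPM in control samples. These groups were apart as well, and the gene was not called (log2 fold change 1.10, SE 0.285, adjusted p = 0.0246, edgeR's quasi-likelihood test). DESeq2 called *Treh* higher. *Tret1-1*, *Tps1* and *Treh* thus all had positive log2 fold changes, of which only that of *Tps1* passed the threshold in edgeR's test. Of all 10374 genes tested 5335 had a positive log2 fold change, and *Treh* was named after its value was seen. These signs alone therefore say nothing particular about trehalose, and a common change of these genes was not tested.

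On the lower side, *CG10924*, named *Pepck2* by RefSeq and coding for a phosphoenolpyruvate carboxykinase of gluconeogenesis, had 759, 415 and 1061 counts in *pros*-depleted samples, against 7703, 3317 and 6490 counts in control samples. It fell (log2 fold change -2.76, SE 0.341, adjusted p = 0.000996, edgeR's quasi-likelihood test) and was called whichever sample was left out. *Gr43a*, which encodes a gustatory receptor for fructose, had 23, 26 and 45 counts in *pros*-depleted samples, against 203, 139 and 160 counts in control samples. It fell as well (log2 fold change -2.22, SE 0.325, adjusted p = 0.00220, edgeR's quasi-likelihood test), a call lost only without control replicate 2 (adjusted p = 0.0107). *Gr43a* was 1 of 5 regulators of the response to sugar that were tested, and the other 4 were not called. In 4 of the 5 all *pros*-depleted samples lay below all controls, as for 22.5% of all genes tested. Of the 5, 3 had an adjusted p under 0.05, as had 2705 of the 10374 genes tested. The paper lists *sug* among the transcription factors that fell, and here it had a log2 fold change of -0.92 (adjusted p = 0.0638, edgeR's quasi-likelihood test). All 5 had negative log2 fold changes, as had 5039 of the 10374 genes tested, and a common fall of these regulators was not tested. None of the genes of glycogen, the pentose phosphate pathway or polyols was called, with 4, 3 and 2 genes tested.

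**Figure D5:**
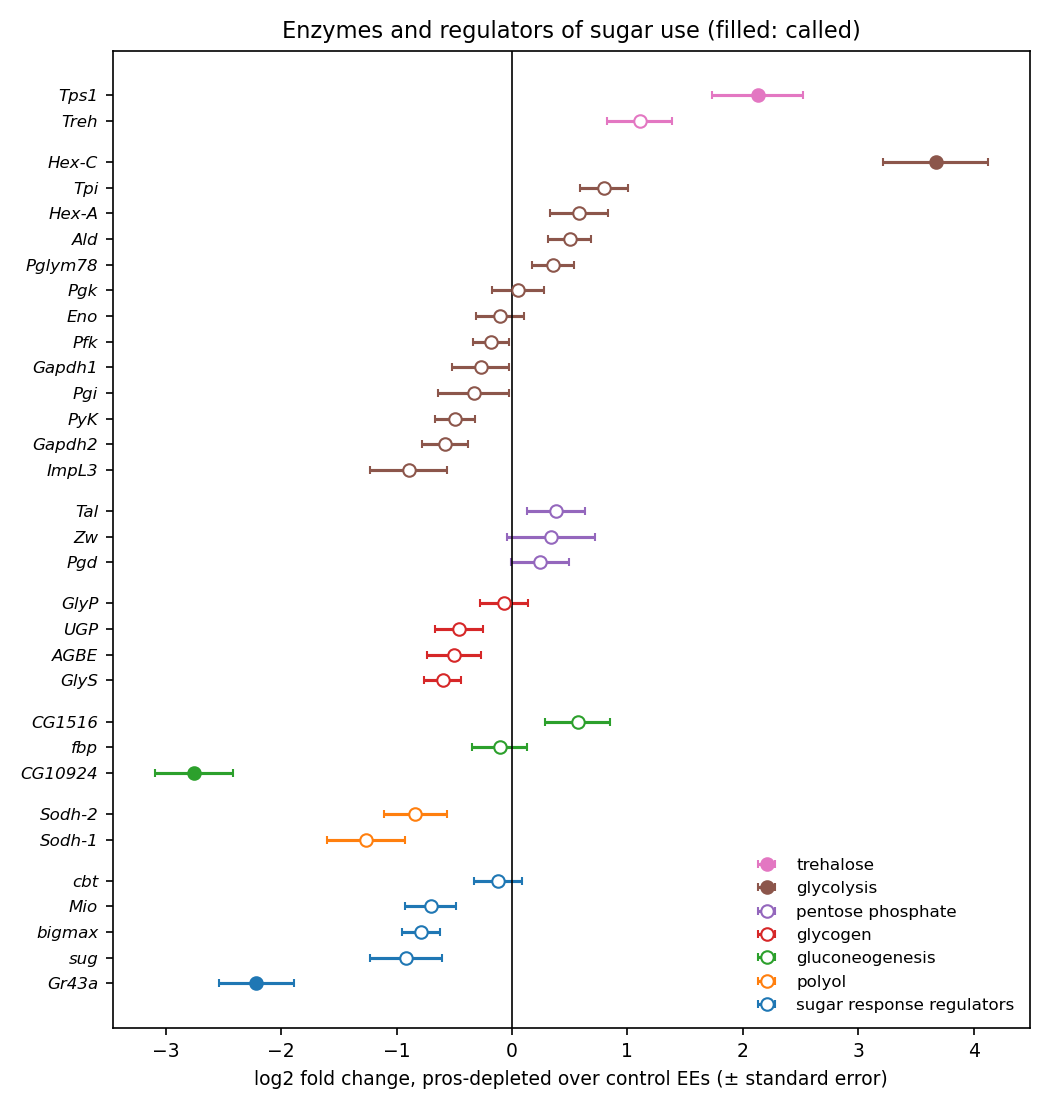
Log2 fold change (*pros*-depleted over control EEs, horizontal axis, bars of ± 1 standard error) of the 32 tested genes of sugar use, grouped and coloured by pathway. The filled points are the 4 called genes, *Hex-C* at 3.67 and *Tps1* at 2.13 on the higher side and *CG10924* at -2.76 and *Gr43a* at -2.22 on the lower side.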

How the data were processed

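RNA-seq of 3 *pros*-depleted and 3 control EE samples was analysed, and the samples were grouped by their titles (the genotype labels of 2 *pros*-depleted samples spell the driver with other digits). The authors used the BDGP6 genome and featureCounts 1.6.3 and deposited raw counts per gene beside each gene's exonic length, without normalization (columns left unused: 0). The aligner, the strand setting and the treatment of reads with several positions are not given in the sources used here, so near-identical copies and overlapping genes are uncertain.

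The model was fitted by edgeR 4.0.16 in R 4.3.3 (TMM, quasi-likelihood test, two-sided, Benjamini-Hochberg adjustment over all genes tested, at least 10 counts in at least 3 samples). The thresholds, adjusted p under 0.01 and absolute log2 fold change over 0.5, are those the study gives for DESeq2. Standard errors are the size of the log2 fold change over the square root of F. Totals of 27183747 to 40766059 counts made 3 counts, taken as the floor of detection, 0.0755 to 0.110 CPM. Within groups the counts differed by more than sampling noise. The study's text calls the 3 replicates of each group independent, and p values measure the spread between these samples. Replicate numbers did not pair the samples.

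Members, lists and markers were chosen with earlier results of these data known. The genes named are the 7 members, every called carrier and the 2 most abundant ones of the wider list, the 3 highest and 3 lowest called genes of sugar use (where there were as many), and the 2 nearest in pattern (prior count 2). Neighbouring genes, *Treh* and *slv* fall outside this rule and were named after their values were seen. The alternatives were DESeq2 1.42.0, RLE factors, library size alone, no filter, a replicate block, a log2 fold change beyond 1 in either direction, a mean count of 50 or more, an adjusted p below 0.05, no division by length, and leaving out each sample in turn. The fits were tested on simulated data. Tables and figures used Python 3.11.15, pandas 2.3.3, scipy 1.17.1 and matplotlib 3.10.9. RefSeq names replaced CG numbers where stated. The Dam-ID data were not analysed here.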

Additional observations from a re-analysis of the deposited data

How the results depend on the processing

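Among the members, scaling by library size alone, DESeq2 and an adjusted p under 0.05 each called 1 gene higher (*Tret1-1*) in place of 0, and scaling by library size alone or a mean of at least 50 counts left 1 called lower in place of 2. Leaving out 1 sample gave 0 higher and 0 to 2 lower. *Glut1* ranged from -0.10 to 0.72 and *CG6484* from -0.38 to 0.90 with 1 sample left out, below 0 only without *pros*-depleted replicate 1. Over the wider list of 30 carriers, members included, 4 higher became 7 with no filter, 9 with DESeq2, 9 at an adjusted p under 0.05 and 0 to 2 with a sample left out, and 3 lower became 6, 5 and 1 to 3 with the last 3 of these. For sugar use, 2 higher became 1 at a mean of at least 50 counts, 4 with DESeq2, 4 at an adjusted p under 0.05 and 1 to 2 with a sample left out, and 2 lower became 4, 6 and 1 to 3 with the last 3 of these. Over all genes, 491 higher and 826 lower became 976 and 1267 with DESeq2, 1184 and 1519 at an adjusted p under 0.05, and 188 to 317 and 413 to 596 with a sample left out. Tests on 2 samples against 3 have less power. The cause was otherwise not tested.

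Library size alone moved the median of all genes by 0.12 and gave 596 higher and 677 lower, or 46.8% higher against 37.3%. Relative to that median, *Tret1-1* was at 0.89, *sut1* at -0.77 and *sut2* at -1.50. Without division by length, *sut2* over *sut1* in control EEs was 1.56 in place of 2.35. Deviations of same-numbered samples correlated at -0.16, 0.20 and 0.10, and a replicate block changed no call of a member, with 346 genes higher and 643 lower, 2 carriers higher in place of 4 and 1 gene of sugar use higher in place of 2. It ended the calls of *CG1208*, *CG7882*, *CG15408* and *Tps1* (edgeR's quasi-likelihood test, adjusted p = 0.0133, 0.0101, 0.0111 and 0.0200), kept that of *CG15406* and added *CG10960*. *sut4* was tested only with no filter. At these depths no difference could be seen in *sut4*.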
